A study of Mus musculus with 9 samples.

Results

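The simple luminal keratin genes Krt8, Krt7, Krt18, Krt19 and Krt23 were followed in sorted fractions of Comma-1D, a mouse mammary epithelial cell line. They were taken by symbol, with earlier results of these data known, and are 5 of the 54281 genes listed in the files and 5 of the 54 keratin genes among them. The cells had been sorted on 2 surface proteins into 3 populations: B had high Sca-1 with low EpCAM, L had low Sca-1 with high EpCAM, and bi was high in both. Each population was taken from control cells, from cells transduced with an activated MYC oncogene and from cells transduced with an activated Her2 oncogene, so that every combination of the 3 populations and 3 arms has 1 library, 9 in all. All cells were grown in DMEM:F12 with serum, EGF and insulin. Not stated in the labels are the oncogenes' species, any vector in the control cells, and whether the arms or the sorts were separate cultures, so p-values measure the spread between these libraries, which may in part be technical.

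Keratins are the intermediate filament proteins of epithelial cells. A filament is built from pairs of 1 type I chain and 1 type II chain, so a cell needs a member of each class. Krt8 and Krt7 encode type II chains and Krt18, Krt19 and Krt23 type I chains. In the mammary gland Krt8 and Krt18 are the classical keratins of luminal cells, Krt7 and Krt19 are found in ductal luminal cells, and Krt5 and Krt14 form the pair of the basal layer.

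The members lie in the keratin gene clusters (GRCm38/mm10, GENCODE M21). The type II cluster on chromosome 15 holds Krt8 (ENSMUSG00000049382.10, chr15:101996698-102004482, minus strand, 9 exons), Krt7 (ENSMUSG00000023039.17, chr15:101411043-101430313, plus strand, 9 exons) and also the type I gene Krt18 (ENSMUSG00000023043.7, chr15:102028180-102032027, plus strand, 7 exons). Krt18 lies next to its partner, and the RefSeq starts of Krt8 and Krt18 were 23872 bases apart and pointed away from each other. The type I cluster on chromosome 11 holds Krt19 (ENSMUSG00000020911.14, chr11:100140810-100148665, minus strand, 6 exons) and Krt23 (ENSMUSG00000006777.7, chr11:99477974-99493137, minus strand, 8 exons).

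The 250 bases before the RefSeq start (GRCm38.p6) are shown for the 4 members with an entry in the promoter table, Krt19 having none. They are shown because 3 of these genes moved together between populations while Krt23 did not. The capitals mark CACCTG, an E-box hexamer known to be bound by the ZEB and SNAIL families of repressors, whose genes are described with the other regulators.
Krt8 (chr15:102004343-102004592, minus strand): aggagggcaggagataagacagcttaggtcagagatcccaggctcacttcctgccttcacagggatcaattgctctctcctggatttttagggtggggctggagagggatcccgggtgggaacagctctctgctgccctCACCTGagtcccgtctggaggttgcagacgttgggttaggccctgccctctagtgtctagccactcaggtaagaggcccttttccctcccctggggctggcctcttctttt
Krt7 (chr15:101412153-101412402, plus strand): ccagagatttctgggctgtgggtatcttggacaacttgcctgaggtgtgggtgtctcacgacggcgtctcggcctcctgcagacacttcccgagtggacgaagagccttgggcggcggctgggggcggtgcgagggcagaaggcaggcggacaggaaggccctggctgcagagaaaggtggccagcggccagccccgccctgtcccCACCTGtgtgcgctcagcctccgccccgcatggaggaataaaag
Krt18 (chr15:102027966-102028215, plus strand): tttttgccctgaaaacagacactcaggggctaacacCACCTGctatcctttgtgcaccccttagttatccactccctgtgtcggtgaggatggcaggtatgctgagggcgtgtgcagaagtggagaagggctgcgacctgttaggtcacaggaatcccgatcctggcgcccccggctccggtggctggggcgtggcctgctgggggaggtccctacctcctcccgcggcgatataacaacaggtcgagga
Krt23 (chr11:99493121-99493370, minus strand): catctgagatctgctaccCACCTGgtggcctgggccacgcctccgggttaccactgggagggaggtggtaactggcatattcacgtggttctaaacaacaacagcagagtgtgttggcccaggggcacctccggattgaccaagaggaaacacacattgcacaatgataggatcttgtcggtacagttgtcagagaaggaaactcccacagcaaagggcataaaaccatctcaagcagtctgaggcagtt

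CACCTG or its reverse complement CAGGTG was present in all 4 windows, against 17.2% of the 32851 RefSeq promoter windows of the same length. The match began 111 bases before the RefSeq start in Krt8, 44 in Krt7, 214 in Krt18 and 232 in Krt23. These starts differ from the GENCODE gene bounds given above. The match in Krt8 and the whole Krt7 window lie within the GENCODE genes. Krt23, which did not rise with the other members, holds the hexamer as well. The GC box GGGCGG, searched on both strands, had 4 matches in Krt7 and none in the other 3 windows (32.7% of all windows held it). The palindrome CACGTG, the E-box that MYC with MAX is known to bind, was present in Krt23 alone of the 4 (6.0% of all windows). TATAAA (12.4%), the AP-1 site TGANTCA (6.7%) and the grainyhead site AACCNGTT (1.8%) had no match in these windows. The GC content was 58.0% in Krt8, 66.0% in Krt7, 60.4% in Krt18 and 52.8% in Krt23, with a median of 52.4% over all windows. A match describes the letters in the window and was not tested as a binding site.

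Depth ran from 46.9 to 98.9 M reads, of which ribosomal RNA loci took 9.7% to 16.1%. Levels are given as CPM, counts per M listed reads, and 3 reads correspond to between 0.0303 and 0.0640 CPM. Within each population the MYC library had the most Myc (179 to 265.5 CPM) and the Her2 library the most Erbb2 (191.2 to 586.9 CPM). Epcam was at most 0.796 CPM in B and at least 239.8 CPM in the other libraries, which follows the sort and is no finding. Ly6a, the gene of Sca-1, had 2.14 to 14.6 CPM over the L libraries, the highest being L MYC, which was close to bi Her2 (17.1), bi control (17.4) and B Her2 (19.6). The summed level of 8 shared luminal markers was 4.22 to 9.82 CPM in B, 755.8 to 1141 in bi and 1396 to 1944 in L. Epcam is among the 8, so this sum follows the sort in part. The 9 basal markers summed to 1934 to 4318 CPM in B, 1853 to 4201 in L and 4320 to 6242 in bi, so the L libraries carried basal keratin RNA too. The 8 fibroblast markers summed to 86.3 to 139 CPM in B, against 17.1 to 22.7 in L and 25.7 to 37.4 in bi. The leukocyte, endothelial and adipocyte markers summed to at most 8.62, 5.24 and 0.816 CPM, with Adgre1 and Lyz2 at or under 3 reads in all 9 libraries.

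Of the type II genes, Krt8 was at 0.0926 CPM in the B control library, had no reads in B MYC (which allows up to 0.0640 CPM) and reached 0.0673 CPM in B Her2. The L libraries had 6.01 CPM in control, 23.7 in MYC and 27.9 in Her2. The bi libraries had 0.506 CPM in control, 3.15 in MYC and 1.02 in Her2. The 3 populations did not overlap, with B lowest, bi between and L highest. The share of all genes that separate the populations in this way is not given, here or for the genes below. The level in B rested on 5, 0 and 3 reads, and in L control on 453.

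Krt7 was at 0.782, 0.436 and 0.535 CPM in the B libraries of the control, MYC and Her2 arms. In L it was at 86.0 CPM in control, 87.1 in MYC and 614 in Her2. The bi libraries had 11.0, 17.6 and 15.2 CPM in the same order. The order of the populations was that of Krt8, and the L Her2 library stood far above the other 2 L libraries.

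Of the type I genes, Krt18 was at 2.48, 1.04 and 4.32 CPM in B control, MYC and Her2. In L it was at 136 CPM in control, 287 in MYC and 767 in Her2. In bi it was at 44.1, 76.6 and 73.5 CPM. The populations again did not overlap, and Krt18 had the most reads of the members in each B library, 49 to 223.

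Krt19 was at 0.0370 CPM in the B control and 0.0426 in the B MYC library and had no reads in B Her2 (which allows up to 0.0581 CPM), from 2, 2 and 0 reads. In L it was at 1.39 CPM in control, 2.84 in MYC and 14.9 in Her2. Its level in bi was 0.111, 0.581 and 0.0862 CPM, from 11, 31 and 7 reads. B was thus at or under 3 reads throughout, and each bi library lay above each B library.

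Krt23 was at 0.352, 0.746 and 2.57 CPM in B control, MYC and Her2. In L it was at 0.969 CPM in control, 3.94 in MYC and 0.384 in Her2. In bi it was at 0.536, 1.11 and 0.0862 CPM. The 3 populations overlapped, and the order of the arms differed between them: Her2 was highest in B and lowest in L and bi, where MYC was highest.

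**Figure D1:**
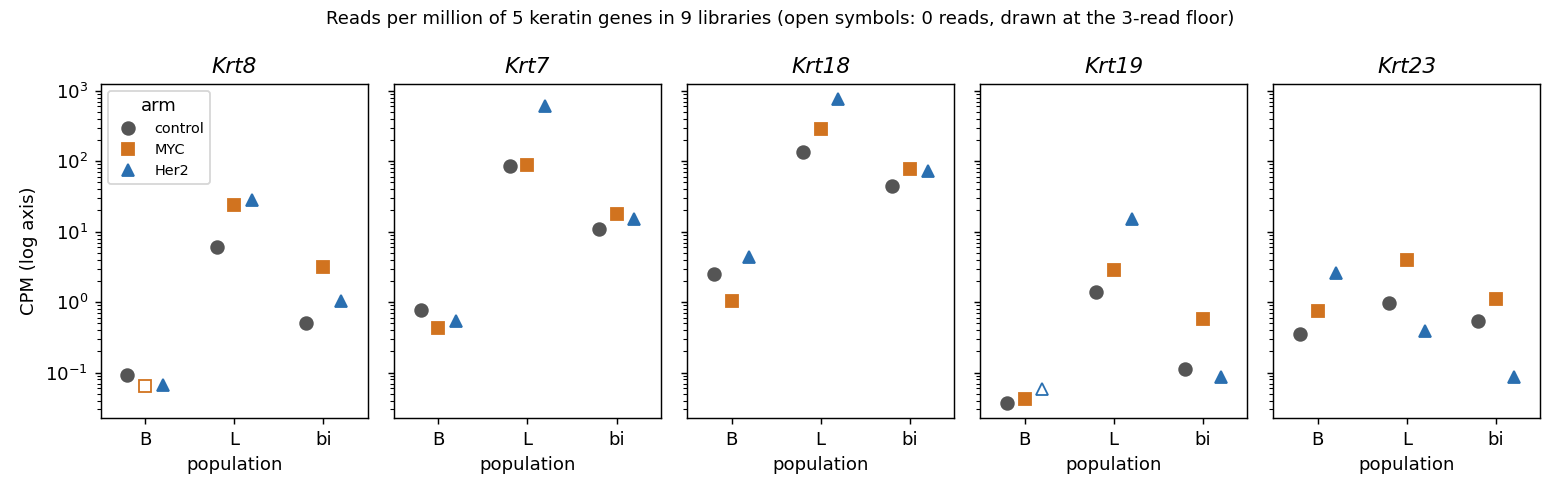
CPM (log axis) of each member in the 9 libraries by population, with the arm as the symbol and open symbols for 0 reads drawn at the level of 3 reads. For Krt8, Krt7, Krt18 and Krt19 the L libraries lie above all others, as for Krt18 with 136 to 767 CPM against at most 76.6 in bi, while the populations overlap for Krt23.

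Averaged over the arms, 4 of the 5 members were higher in L than in B: the type II genes Krt8 and Krt7 and the type I genes Krt18 and Krt19. The means were 19.2 ± 11.6 CPM in L and 0.0533 ± 0.0479 in B for Krt8, 262 ± 304 and 0.584 ± 0.178 for Krt7, 397 ± 330 and 2.61 ± 1.64 for Krt18, and 6.38 ± 7.43 and 0.0266 ± 0.0232 for Krt19 (SD, n = 3). Fold changes come from edgeR's quasi-likelihood test on all 9 libraries with population and arm in the model, with Benjamini-Hochberg adjustment over 23834 genes and calls at an adjusted p under 0.05. The log2 fold change was 8.26 (SE 0.84, adjusted p = 0.000135) for Krt8, 8.34 (SE 0.84, adjusted p = 0.000126) for Krt7, 7.07 (SE 0.57, adjusted p = 3.53e-05) for Krt18 and 7.52 (SE 1.27, adjusted p = 0.00252) for Krt19. In this comparison 20.8% of all genes tested were called, 11.5% as higher and 9.26% as lower in L, and the median log2 fold change of all genes was 0.04 against 7.52 for the 5 members. That median is the value of Krt19. Krt8 and Krt19 had at most 5 reads in each B library and were kept by the filter on low counts only through L and bi. Their calls against B thus follow in part from the filter. In bulk RNA, fewer cells that express a gene and less RNA of it per cell cannot be told apart.

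Each arm alone gave the direction of the average. The log2 ratio of L to B for Krt7 was 6.77 in the control arm, 7.30 in MYC and 10.23 in Her2, and for Krt18 it was 5.79, 7.78 and 7.63. All 4 calls held without the L Her2 library, with log2 fold changes of 7.55 for Krt8, 7.10 for Krt7, 6.48 for Krt18 and 5.70 for Krt19. The fitted value for Krt19 rests on 4 reads over the 3 B libraries.

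Krt23 averaged 1.76 ± 1.91 CPM in L and 1.22 ± 1.19 in B (SD, n = 3), a difference within the spread of the libraries (log2 fold change -0.07, SE 1.0, adjusted p = 0.972, edgeR). The fold change is an average of opposite values, since the log2 ratio of L to B was 1.42 in control and 2.07 in MYC but -2.50 in Her2. Without the Her2 arm, where the ratio was opposite, Krt23 was called higher in L (log2 fold change 1.84, adjusted p = 0.0161, edgeR). That call follows from which arm was left out. The L library was thus the higher one in 2 arms of 3.

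In bi, Krt8, Krt7 and Krt18 were higher than in B. Their means were 1.56 ± 1.40, 14.6 ± 3.33 and 64.7 ± 17.9 CPM in bi (SD, n = 3). The log2 fold change was 4.59 (SE 0.84, adjusted p = 0.00673) for Krt8, 4.72 (SE 0.73, adjusted p = 0.00290) for Krt7 and 4.81 (SE 0.52, adjusted p = 0.000362) for Krt18 by edgeR, and all 3 calls held without any single library. Of all genes tested, 13.0% were called and 7.88% were higher in bi and 5.11% lower. Krt8 was kept by the filter only through L and bi here too, so its call follows in part from the filter. Krt19 did not pass (log2 fold change 3.23, SE 1.41, adjusted p = 0.179), with 11, 31 and 7 reads in bi against 2, 2 and 0 in B. It passed without the L Her2 library (3.03, adjusted p = 0.0217) or the bi Her2 library (4.58, adjusted p = 0.0368), by edgeR. Krt23 did not pass either (-1.37, SE 1.06, adjusted p = 0.481).

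Set against L, the bi population was lower in Krt8 (log2 fold change -3.66, SE 0.61, adjusted p = 0.0330) and Krt7 (-3.62, SE 0.68, adjusted p = 0.0498) by edgeR. Krt18 (-2.26, SE 0.46, adjusted p = 0.0753) and Krt19 (-4.29, SE 1.0, adjusted p = 0.116) did not pass, and neither did Krt23 (-1.30, SE 0.90, adjusted p = 0.891). The populations were closer here, with 0.751% of all genes called and 0.256% called as lower in bi. All bi libraries were below all L libraries for Krt8, Krt7, Krt18 and Krt19, and the share of all genes with this order is not given. The log2 ratio of bi to L in the control, MYC and Her2 arms was -3.40, -2.65 and -4.98 for Krt8, -2.86, -2.05 and -5.58 for Krt7, and -1.52, -1.65 and -3.64 for Krt18, so the gap was widest in the Her2 arm.

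Both calls between bi and L were close to the threshold. The Krt8 call was lost without L MYC (adjusted p = 0.111), L Her2 (0.114), bi control (0.0841) or bi Her2 (0.132), with the log2 fold change between -4.42 and -3.05 over all single libraries left out. The Krt7 call was lost without B control (0.0705), B MYC (0.0615), L MYC (0.0530), bi control (0.114), bi MYC (0.0599) or bi Her2 (0.227), with the log2 fold change between -4.34 and -2.44, the latter without L Her2. Krt18 was called without B MYC (adjusted p = 0.0424) or L control (0.0279) and by DESeq2 (2.93e-06). Over all genes DESeq2 called 664 here, against 179 by edgeR. Where no tool is named, these adjusted p-values are from edgeR.

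**Figure D2:**
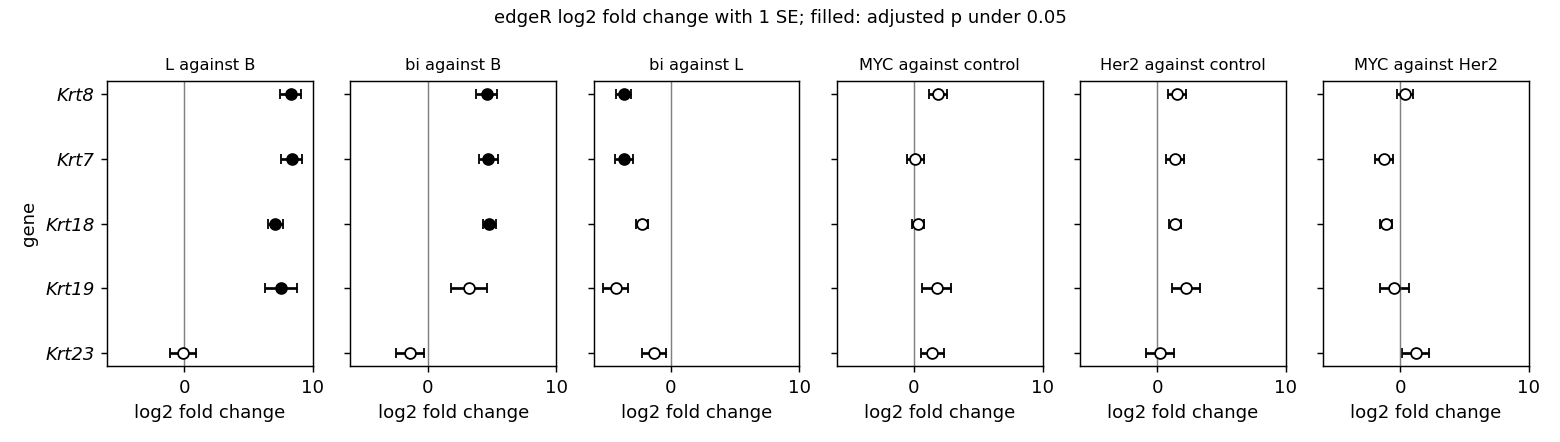
Log2 fold change of each member in the 6 comparisons (points) with 1 SE (bars), filled where the adjusted p from edgeR was under 0.05. The filled points are 4 in L against B, 3 in bi against B and 2 in bi against L, and no oncogene comparison has one.

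Between genes, levels were compared as CPM per kilobase of the longest coding transcript. Krt18 was the most abundant member on this scale in all 9 libraries, with 54.4% to 92.2% of the summed CPM per kilobase of the 5 genes. Its type II partners did not reach its level. The ratio of Krt18 to Krt8 per length was 30.8 in L control (95% counting interval 28.0 to 33.9), 16.5 in L MYC (15.7 to 17.4) and 37.4 in L Her2 (35.8 to 39.1). In bi it was 119 in control (90.0 to 160), 33.2 in MYC (28.4 to 38.9) and 97.9 in Her2 (78.9 to 123). Within both populations the MYC library had the lowest ratio, with an interval that did not meet those of the other arms; there is 1 library for each.

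The ratio of Krt18 to Krt7 per length was 4.50 in L control, 9.40 in L MYC and 3.56 in L Her2, and 11.4, 12.4 and 13.7 in the bi libraries. By the deposited TPM these were 2.90, 5.58 and 2.18 in L and 7.31, 8.01 and 9.58 in bi. The level of Krt7 relative to Krt18 thus depends on which transcript length is used, while the order of L below bi holds on both scales. Krt7 stood above Krt8 per length in each L and bi library, by 1.76 in L MYC up to 10.5 in L Her2 (3.08 and 17.9 by TPM). Krt19 was at most 0.0177 of Krt18 per length in L and 0.00692 in bi. Among near-identical copies, the pseudogene Krt8-ps had at most 0.524 reads in a library, and the Krt18 pseudogenes Gm5200 and Gm17847 had 0. The opposite-strand genes that overlap Krt8 and Krt7, Gm36026 and Gm671, were at most 0.701 and 0.727 CPM, both in L Her2.

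**Figure D3:**
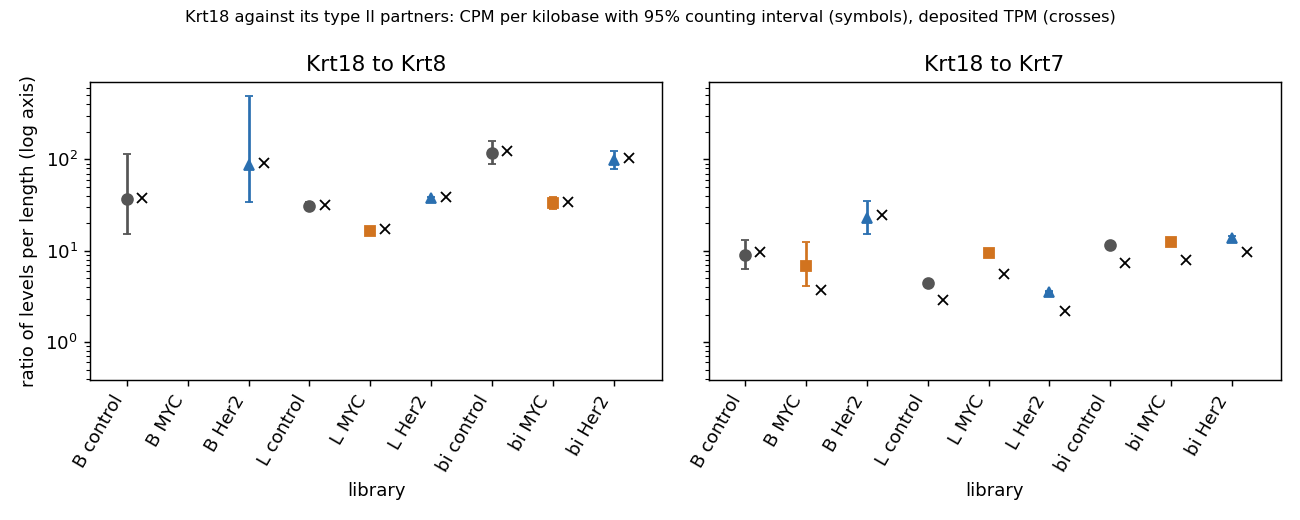
Ratio of Krt18 to its type II partners Krt8 and Krt7 in each library (log axis), as CPM per kilobase with the 95% counting interval (symbols by arm) and as deposited TPM (crosses). B MYC has no Krt8 reads and so no Krt8 ratio. Krt18 exceeds both partners in every library drawn, and the ratio to Krt8 is lowest in L MYC at 16.5.

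The simple keratins were a small part of the keratin RNA outside L. Of the summed CPM per kilobase of all 54 keratin genes, the 5 members made up 0.113%, 0.0886% and 0.545% in B control, MYC and Her2, and 1.33%, 1.67% and 2.24% in bi. In L they made up 5.17% in control, 17.2% in MYC and 36.0% in Her2. The basal gene Krt14 exceeded Krt18 per length in 8 of the 9 libraries. The exception was L Her2, with a ratio of Krt18 to Krt14 of 1.67, against 0.139 in L control and 0.509 in L MYC. The rest of the keratin RNA was mainly basal: Krt5 ranged from 574.5 to 1483 CPM in B, from 896.4 to 2197 in L and from 1859 to 2193 in bi, and Krt14 from 765.1 to 1535, from 544.3 to 1152 and from 1382 to 2301.

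Of the other 49 keratin genes, 21 passed the filter on low counts. In L against B, 7 of the 21 were called higher and 1 lower, against 11.5% and 9.26% of all genes, with a median log2 fold change of 0.81 against 0.04. Among those called higher, Krt79, Krt87, Krt75 and Krt12 had no reads in B and passed the filter only through L and bi. The shares called against B thus follow in part from the filter. Krt5 (0.24), Krt14 (-0.61) and Krt17 (0.81) were not called. Krt80, a type II gene of several epithelia, rose from a mean of 4.60 to 42.4 CPM (2.86, adjusted p = 0.00254), and Krt6b, a stress keratin gene, from 10.3 to 35.8 CPM (1.80, adjusted p = 0.0430). Krt79 had no reads in B and 6.04 to 30.1 CPM in L. Krt90 was at 0.333 CPM in B control and without reads in the other B libraries, and at 1.38 to 48.1 CPM in L. Krt87, with no reads in B, reached 0.690 to 4.23 CPM in L. Krt39 was called lower, from a mean of 0.297 to 0.0405 CPM (-2.79, adjusted p = 0.0231), and was kept by the filter mainly through B. In bi against B, 9 were called higher and none lower (7.88% and 5.11% of all genes), among them Krt17 (2.01, adjusted p = 0.00520) and Krt6a (2.02, adjusted p = 0.0120), and in bi against L 1 was called, Krt87 (-4.27, adjusted p = 0.0490), lower. These adjusted p-values are from edgeR. In bi Krt87 was at 0.0303 to 0.206 CPM and it was kept by the filter mainly through L, so its call in bi against L also follows in part from the filter. Krt15 and Krt16, the remaining ones above a mean of 5 CPM, were not called in these comparisons, at means of 20.3, 5.47 and 36.6 CPM and of 27.5, 18.3 and 79.2 CPM in B, L and bi.

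Averaged over the populations, no member passed the test for MYC against control, where 0.365% of all genes were called (87 genes, and 3317 at an unadjusted p under 0.05). The log2 fold changes were 1.89 (SE 0.68, adjusted p = 0.246) for Krt8, 0.11 (SE 0.66) for Krt7, 0.31 (SE 0.46) for Krt18, 1.76 (SE 1.10) for Krt19 and 1.43 (SE 0.91) for Krt23, by edgeR. By CPM, Krt8, Krt7 and Krt18 were higher in the MYC library in 2 of 3 populations, L and bi. Krt19 and Krt23 were higher in 3 of 3, with Krt19 in B at 2 reads in both libraries. Within L the MYC to control log2 ratio was 1.82 for Krt8 (95% counting interval 1.67 to 1.98), 1.84 for Krt23 (1.49 to 2.26), 0.93 for Krt18 and 0.86 for Krt19. Within bi it was 2.57 for Krt8 (2.17 to 3.12), 2.12 for Krt19 (1.35 to 3.52), 1.0 for Krt23, 0.79 for Krt18 and 0.67 for Krt7. Krt7 in L was at -0.14, and at 0.02 without TMM scaling. In B, Krt18 was at -1.07 (-1.59 to -0.60), Krt7 at -0.67 (-1.55 to 0.09) and Krt23 at 1.18 (0.40 to 2.13). These values set 1 library against 1, and their intervals cover counting error alone.

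A 2-fold rise was reached by Krt8 and Krt23 in L, where 7.65% of all genes were at least 2-fold higher in MYC. In bi it was reached by Krt8, Krt19 and Krt23, against 8.86% of all genes, and in B by Krt23, against 4.43%. Krt18 was 2-fold lower or more in B, as were 11.7% of all genes. The 5 luminal progenitor markers summed to 52.4 CPM in L control and 184 in L MYC, and to 25.1 in bi control and 44.4 in bi MYC. Cd14 made up most of these sums (46.0, 136, 22.5 and 36.4 CPM), and of the 5 markers Kit alone was called in MYC against control (adjusted p = 0.0224, edgeR). Their part in the keratin values was not tested.

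For Her2 against control no member passed by edgeR, where 0.0210% of all genes were called (5 genes, and 2097 at an unadjusted p under 0.05). The log2 fold changes were 1.54 (SE 0.68, adjusted p = 0.566) for Krt8, 1.37 (SE 0.68, adjusted p = 0.643) for Krt7, 1.42 (SE 0.46, adjusted p = 0.337) for Krt18, 2.21 (SE 1.10, adjusted p = 0.638) for Krt19 and 0.23 (SE 1.06) for Krt23. Krt18 was higher in the Her2 library in 3 of 3 populations, and DESeq2 called it (1.41, adjusted p = 0.0230), with 509 genes called over all. Without the L Her2 library the log2 fold change was -0.02 for Krt7, 0.56 for Krt8, 0.92 for Krt18 and -1.22 for Krt19, so for Krt7 and Krt19 this 1 library set the direction of the average.

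The L Her2 library held the highest level of Krt8, Krt7, Krt18 and Krt19 in the series. Of the other keratins named above, Krt80 (92.4 CPM), Krt90 (48.1) and Krt87 (4.23) were highest in L Her2 too, and the remaining ones were highest elsewhere. Against L control, Krt7 was 8.07-fold higher (log2 ratio 3.01, 95% counting interval 2.98 to 3.05), Krt18 6.39-fold (2.68, 2.65 to 2.71), Krt19 11.9-fold (3.57, 3.31 to 3.90) and Krt8 5.24-fold (2.39, 2.25 to 2.54). Of all genes, 6.92% were at least 2-fold higher in L Her2. In bi the Her2 to control log2 ratio was smaller, at 0.80 for Krt8 (0.31 to 1.37), 0.29 for Krt7 (0.17 to 0.41), 0.55 for Krt18 (0.50 to 0.61) and -0.42 for Krt19 (-2.15 to 0.95). In B, Krt18 was at 0.84 (0.53 to 1.17) and Krt7 at -0.45 (-1.22 to 0.25). No population has a second Her2 library, so the difference between L and bi was not tested.

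The 8 shared luminal markers summed to 1396 CPM in L control, 1944 in L MYC and 1581 in L Her2, and the progenitor markers to 52.4, 184 and 31.8. The shared markers went different ways in L Her2: Elf3 was at 11.3 CPM in L control and 34.6 in L Her2 and Cldn4 at 14.6 and 78.1, while Ehf was at 356.3 and 112. Erbb2 reached 586.9 CPM in L Her2, more than in bi Her2 (252.3) or B Her2 (191.2). The part of these genes in the keratin values was not tested.

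Krt23 differed from the other members in the Her2 arm. It was 7.03-fold higher in B Her2 than in B control (log2 ratio 2.81, 2.22 to 3.69, from 133 and 19 reads). It was lower in L Her2 than in L control (-1.11, -1.83 to -0.52, from 29 and 73 reads) and in bi Her2 than in bi control (-2.44, -4.20 to -1.68, from 7 and 53 reads). At least 2-fold higher values were found for 5.22% of all genes in B, and at least 2-fold lower ones for 6.17% in L and 3.99% in bi. The Her2 effect in L and bi together differed from that in B by -4.76 (SE 0.82) on the log2 scale, which did not pass adjustment over all genes (unadjusted p = 0.000516, adjusted p = 0.177, edgeR). The model has 2 residual degrees of freedom, to which edgeR adds prior ones estimated from all genes. In this test 0.00420% of all genes were called. DESeq2 called Krt23 in the same test (-4.86, adjusted p = 0.000993), and 299 genes over all. With 1 library left out, which leaves fewer residual degrees of freedom, the difference by edgeR was -5.39 to -4.25.

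The same test of the Her2 effect did not pass by edgeR for Krt7 (2.48, SE 1.5, adjusted p = 0.521) or Krt18 (0.89, SE 0.86, adjusted p = 0.669). With 1 library left out, the Krt7 difference was 0.65 to 3.67. For Krt8 and Krt19 the test rests on B libraries with 0 to 5 reads. The test of the MYC effect in L and bi against that in B called no member and 0 genes by edgeR (1689 at an unadjusted p under 0.05) and 87 genes by DESeq2. Here too Krt8 and Krt19 rest on B libraries with 0 to 5 reads. By edgeR the difference for Krt8 was 7.91 (SE 2.93, adjusted p = 0.6595), and 7.07 to 8.63 with 1 library left out. For Krt18 it was 1.93 (SE 0.91, adjusted p = 0.6595, edgeR), and 1.38 to 2.59 with 1 library left out. MYC against Her2 called no member either, with 4.57% of all genes called, and with Krt18 at -1.11 (SE 0.46, adjusted p = 0.224, edgeR). Without B Her2 it called Krt23, higher in MYC (3.27, adjusted p = 0.00805, edgeR). The 2 oncogene comparisons share their control libraries.

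**Figure D4:**
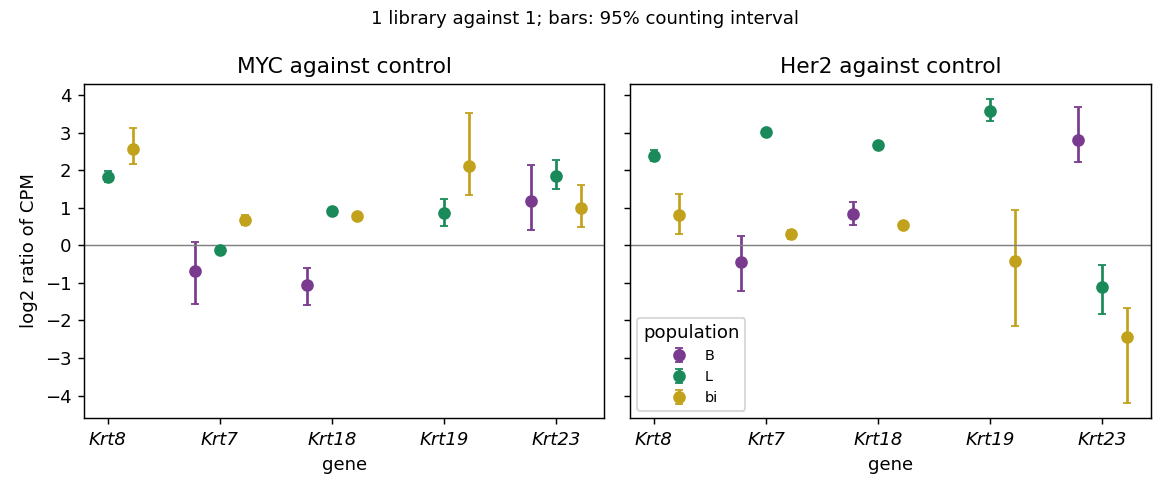
Log2 ratio of each oncogene library to the control library of its population, with 95% counting intervals, leaving out Krt8 and Krt19 in B, which had at most 5 reads. In the Her2 panel the 4 other keratins lie at 2.39 to 3.57 in L, while Krt23 lies at 2.81 in B and below 0 in L (-1.11) and bi (-2.44).

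Of 15 genes for keratin linkers, chaperones and binding partners, L had 3 higher than B and 1 lower, a share near the 20.8% of all genes called, with a median log2 fold change of 0.07. Ppl and Evpl, which encode the plakins periplakin and envoplakin, rose by 5.02 (adjusted p = 6.34e-05) and 3.46 (adjusted p = 2.73e-05), and Eppk1, which encodes the keratin-binding epiplakin, by 1.62 (adjusted p = 0.000732). Dst, which encodes the hemidesmosomal linker dystonin, was lower by -0.81 (adjusted p = 0.0159). Plec and Dsp, the genes of plectin and desmoplakin, were not called, at 754.8 to 1354 and 570.2 to 980.8 CPM in L and 1258 to 1763 and 491.9 to 1076 CPM in B. In bi against B, 4 of the 15 were higher and none lower (7.88% and 5.11% of all genes), and in bi against L none was called (0.751% of all genes). These and the next adjusted p-values are from edgeR.

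Of 12 other intermediate filament genes, 8 were tested. In L against B 1 was higher and 1 lower, against 11.5% and 9.26% of all genes: Lmnb1, the gene of the nuclear lamin B1, rose by 1.17 (adjusted p = 0.00184), and Ina, a neuronal filament gene, was lower (-1.78, adjusted p = 0.0166), at 0.881 to 1.05 CPM in B and 0.145 to 0.425 in L. Vim, the gene of the mesenchymal filament protein vimentin, was at 418.7 to 443.4 CPM in B and 251.9 to 385.5 in L and was not called. The B population thus carried Vim with Krt5 and Krt14, and the L population carried all 3 beside the simple keratins.

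Most of the listed transcription factors of epithelial identity were higher in L. Of 18 tested (19 listed), 11 were higher and 2 lower than in B, against 11.5% and 9.26% of all genes, with a median log2 fold change of 2.11 against 0.04. Grhl2, a grainyhead factor gene, was at 1.30 to 1.76 CPM in B and 92.9 to 136 in L (6.14, adjusted p = 1.48e-06). Ehf, an ETS factor gene, was at 1.82 to 8.30 CPM in B and 112 to 715 in L (6.03, adjusted p = 8.47e-07). Ovol2 had no reads in B and 3.27 to 3.85 CPM in L, and so passed the filter only through L and bi. Foxa1, a pioneer factor of hormone-sensing luminal cells, had at most 0.0185 CPM in B and 0.451 to 1.16 in L. Klf5 (-1.02, adjusted p = 0.0190) and Tfap2a (-0.90, adjusted p = 0.0227) were lower. In bi against B, 9 of the 18 were higher and none lower (7.88% and 5.11% of all genes), and in bi against L Foxa1 alone was called, lower by -3.63 (adjusted p = 0.0230). Foxa1 was at 0.0405 to 0.0749 CPM in bi, near the level of 3 reads. It was kept by the filter only through the L libraries, so its calls in L against B and bi against L follow in part from the filter.

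Of 7 repressors of epithelial genes, 4 were lower in L compared with B and none was higher, against 9.26% and 11.5% of all genes, with a median log2 fold change of -2.11. Zeb1 ranged from 51.3 to 61.7 CPM in B, from 13.1 to 15.7 in bi and from 1.92 to 3.92 in L. It was lower in L by -4.32 (SE 0.28, adjusted p = 1.01e-05) and lower in bi than in B by -1.99 (adjusted p = 0.000856), and higher in bi than in L by 2.33 (SE 0.26, adjusted p = 0.00937). Twist2 was lower in L by -3.31 (adjusted p = 0.000185) and higher in bi than in L by 2.15 (adjusted p = 0.0283). Snai2, in contrast, was higher in bi than in B (1.57, adjusted p = 0.0383). Whether these genes bear on the keratins was not tested.

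Over the 9 libraries, log2 CPM of Krt8, Krt7, Krt18 and Krt19 had pairwise Pearson correlations of 0.87 to 0.98, and those of Krt23 with the others lay between -0.04 and 0.13. The libraries fall into the 3 populations, so these values describe mainly the order of populations. Among genes with a mean of at least 5 CPM, Rhpn2 (0.992), Tmem170 and Ralgps2 (both 0.985) were most like Krt8. Tpd52 (0.990) and Inpp1 (0.981) were among those most like Krt7, and B3gnt3 (0.989), Tnik (0.989) and Crip1 (0.988) most like Krt18. For Krt19 they were Nucb2 (0.964), Ralgps2 (0.964) and Ptprj (0.958), and for Krt23 Znrf2 (0.956), Zfp945 (0.939) and Fam234b (0.934).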

How the data were processed

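Salmon 0.9.1 with mm10 was used by the authors to make the estimated count and the TPM of each gene, per the submitters' processing notes. The deposited tables also list a length and an effective length, and the annotation release is not given in the sources used here. Per the labels' protocols, RNA was isolated with either of 2 kits, and stranded libraries were prepared with ribosomal RNA depletion, while the molecule label reads polyA RNA. Of the listed Ensembl identifiers, 53544 got a symbol with their version, 563 without it and 174 none.

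Estimated counts were rounded, passed through filterByExpr with arm as the group (at least 10 reads, 15 in total), which kept all 5 members, and scaled by TMM (factors 0.903 to 1.14) in edgeR 4.0.16 (R 4.3.3). As there was 1 library per population and arm, the quasi-likelihood model was additive (population and arm), with 4 residual degrees of freedom, so its residual holds their interaction together with library noise. To the residual degrees of freedom the test adds prior ones estimated from all genes. The SE is the log2 fold change divided by the square root of F. CPM levels use all listed reads without TMM. Ratios between single libraries use CPM after TMM scaling and a prior count of 2, and their intervals, like those of ratios between genes, are exact binomial and cover counting error alone. No ratio of an oncogene library to its control is given where either had 3 reads or fewer. The fitted fold changes of Krt8 and Krt19 against B rest on 8 and 4 reads there, and both genes were kept by the filter only through L and bi.

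The deposited lengths of genes with several transcripts did not match the deposited TPM. For Krt7 in L control the deposited effective length was 971.5 bases, and the TPM implies 2283. For genes with 1 transcript and over 100 reads, 98.6% to 99.0% matched within 1%. Levels between genes therefore use annotated lengths, and TPM as an alternative. The TPM implies 1947 to 3819 bases for Krt7 in B and 2100 to 2382 in L and bi. Genes on the opposite strand overlap Krt8 and Krt7, and whether counting used strand is not given in the sources used here.

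Other alternatives were DESeq2 1.42.0, limma 3.58.1 (voom, and log2(TPM + 0.1)), size factors, filters, no ribosomal loci, no block, and libraries, arms or populations left out. The test was tested on simulated data. Named genes were the members, 4 label checks, up to 2 rises and 2 falls of each list in L against B, other keratins with a mean of at least 5 CPM in a population, and the 3 genes most like each member, of which 1 for Krt7 is not reported here. Eppk1, Plec, Dsp, Vim, Grhl2, Ehf, Elf3, Snai2, Krt75, Krt12, Adgre1 and Lyz2 are named outside this rule, after their values were seen. The pseudogenes and the overlapping opposite-strand genes are outside the rule too. The members and lists were chosen with earlier results of these data known.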

Additional observations from a re-analysis of the deposited data

Results flagged for a closer look

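Krt23 went in opposite directions with Her2 in the populations. Set against the control library of the population, its log2 ratio in the Her2 library was 2.81 in B, whereas it was -1.11 in L and -2.44 in bi. Every ratio compares 1 library with 1. The test of the effect in L and bi against that in B gave an adjusted p of 0.177 by edgeR and 0.000993 by DESeq2. Over all genes, edgeR called 1 in this test and DESeq2 299. The difference between L and bi was not tested.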

How the results depend on the processing

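The calls of Krt8, Krt7, Krt18 and Krt19 in L against B and of Krt8, Krt7 and Krt18 in bi against B held under each alternative that gave a value. Of 822 member values under alternatives, 705 kept their direction and their side of the threshold (for ratios, stayed within the counting interval), 43 changed sign, 20 lost a call, 31 gained one and 23 ratios moved outside their interval. The cause was not tested. Krt19 gave no value without the MYC arm and without the L population. Labels give no replicate numbers, so arm or population served as the block. Depth limits Krt8 and Krt19 in B, which rest on 8 and 4 reads.

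The number of members called was 2 in bi against L. It was 4 with DESeq2 and without the filter, 0 with limma-voom, with limma on TPM, at 1 CPM in 3 libraries and without the block, 1 without the control arm and without the Her2 arm, and 0 to 3 with 1 library left out. For MYC against control it was 0, and 1 without the filter (Krt8). For Her2 against control it was 0, and 1 with DESeq2 and without the filter (Krt18). For MYC against Her2 it was 0, then 1 with DESeq2 and without the filter (Krt18), 1 without the B population (Krt23), and 0 to 1 with 1 library left out. For the MYC effect in L and bi against B it was 0, and 0 to 2 with 1 library left out. For the Her2 effect it was 0, then 1 with DESeq2 and without the filter (Krt23), and 0 to 2 with 1 library left out.

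Over all genes, the 4953 calls in L against B became 2820 without the MYC arm. The 3094 in bi against B became 1430 without the block, 1961 when the control arm was left out, 1879 without the MYC arm and 1843 to 3276 with 1 library left out. The 179 in bi against L became 664 with DESeq2, 74 with limma on TPM and without the Her2 arm, 698 without the filter, 93 at 1 CPM in 3 libraries, 20 without the block, 116 when the control arm was left out, 96 without the MYC arm and 33 to 241 with 1 library left out. The 87 in MYC against control became 54 with DESeq2 size factors, 966 with DESeq2, 206 with limma-voom, 701 with limma on TPM, 944 without the filter, 229 at 1 CPM in 3 libraries, 4 without the block, 844, 34 and 8 without the B, L and bi population, and 6 to 492 with 1 library left out. The 5 in Her2 against control became 32 with DESeq2 size factors, 509 with DESeq2, 54 with limma-voom, 0 with limma on TPM, at 1 CPM in 3 libraries and without the block, 619 without the filter, 1 and 125 without the L and bi population, and 0 to 89 with 1 library left out. The 1089 in MYC against Her2 became 1874 with DESeq2, 2089 without the filter, 6 without the block, 2070, 256 and 432 without the B, L and bi population, and 217 to 1499 with 1 library left out. The 0 for the MYC effect by population became 1 with DESeq2 size factors, 87 with DESeq2, 67 without the filter and 12 to 556 with 1 library left out. The 1 for the Her2 effect by population became 299 with DESeq2, 0 with limma-voom, with limma on TPM and at 1 CPM in 3 libraries, 256 without the filter and 179 to 1042 with 1 library left out.

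Log2 fold changes that changed sign belong to members that were not called. In L against B, Krt23 (-0.07) was 0.63 with limma-voom, 0.29 with limma on TPM, 0.39 without the block, 1.84 without the Her2 arm and -1.17 to 1.97 with 1 library left out. In bi against B, Krt23 (-1.37) was 0.65 without the Her2 arm and -2.45 to 0.50 with 1 library left out. In MYC against control, Krt7 (0.11) was -0.024 with DESeq2, -0.015 without the block, -0.50 without the bi population and -0.84 to 0.68 with 1 library left out, and Krt18 (0.31) was -0.066 without the bi population and -0.29 to 0.70 with 1 library left out. In Her2 against control, Krt7 (1.37) was -0.072 without the L population and -0.023 to 2.06 with 1 library left out, Krt19 (2.21) was -1.22 to 3.33 with 1 library left out, and Krt23 (0.23) was -0.27 with limma-voom, -0.13 with limma on TPM, -1.82 without the B population and -1.90 to 1.30 with 1 library left out. In MYC against Her2, Krt8 (0.36) was -0.0023 with limma-voom, -0.40 without the block, -0.65 without the bi population and -0.53 to 1.20 with 1 library left out, Krt7 (-1.27) was 0.16 without the L population and -2.07 to 0.039 with 1 library left out, and Krt19 (-0.45) was 0.44 with DESeq2, 0.13 with limma on TPM and -1.87 to 2.56 with 1 library left out. With 1 library left out, the MYC effect by population ran from -0.26 to 1.92 for Krt7, -0.31 to 3.33 for Krt19 and -0.36 to 0.78 for Krt23, and the Her2 effect from -0.16 to 1.80 for Krt18.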
